A study of Rattus norvegicus with 15 samples.

Results

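Defence against bacteria at the colon mucosa was followed through 5 genes, namely Lcn2, S100a8, S100a9, Lyz2 and Pigr, out of 32883 genes counted in the MS tissue layer of the rat colon. They were chosen by name and Ensembl ID as products that hold bacteria back, and a sixth listed ID, that of Nos2, the inducible nitric oxide synthase, is not analysed here. None of the genes counted highly enough for the test, 3 in TG rats and 4 in WT rats, passed it for a change with antibiotics. S100a8, and Lcn2 in TG rats, had too few counts for it. Of all genes tested, 0.00814% passed it in TG rats and 0% in WT rats. S100a9 was higher in every WT-Ab library than in every WT-C library, as were 23.1% of the genes tested, and it entered that test only through its treated libraries. The highest Lyz2 and the lowest Pigr levels were those of 3 libraries that stood apart from the rest.

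The transgenic rats of this Parkinson disease model (TG, homozygous) carry a human BAC transgene with its human promoter, and wild type littermates (WT) on the same outbred Sprague Dawley background served as controls. The groups at 3 M were untreated WT rats (WT-C), untreated TG rats (TG-C), and WT and TG rats given an antibiotic cocktail in sucrose water for 2 weeks from 2.5 M of age (WT-Ab and TG-Ab). The cocktail held amoxicillin with clavulanic acid, vancomycin, neomycin, cefuroxime, streptomycin and ampicillin, and whether control rats drank sucrose is not stated. Untreated WT rats at > 12 M formed a further group, and every group had 3 libraries. Whether separate rats gave the 3 libraries of a group is not stated in the sources used here. The p-values therefore reflect the spread among libraries only, which may be technical. Between 2 libraries of a group the mean chi-square per gene, after scaling to library totals, was 24.9 to 354. This spread was beyond counting error, and whether separate rats or separate preparations gave it was not tested. The layer joins the epithelium to the connective tissue, immune cells and vessels beneath it, so in these bulk samples fewer cells of a type and less RNA per cell cannot be told apart. Markers of the labelled epithelium and of other cell types were not analysed here, since 0 Ensembl IDs had a symbol in the gene table used.

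Mucosal defence works in layers. Secreted antibody is carried across the epithelium into the lumen, enzymes and metal-binding proteins released by epithelial and myeloid cells then attack bacteria or starve them, and many of these genes are known to be switched on through NF-κB when bacterial products are sensed. In the healthy colon the antibody transporter is made in large amounts by the epithelium, whereas the neutrophil proteins are low until inflammation begins. The comparison of treated with untreated rats addressed whether expression of these genes fell when the bacterial load was reduced.

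Library totals were 15606835 to 28685094 counts. On the first principal component of the 12 libraries at 3 M, WT-Ab 1, TG-C 1 and TG-Ab 1 lay at 66.8 to 98.3 and the other 9 at -58.3 to 0.02. In these 3 libraries the mitochondrially encoded share of counts was 6.05 to 9.35%, against 11.0 to 13.7% in the others. WT-C 1 carries the same replicate number but did not stand apart. The libraries fall in 3 of the 4 groups at 3 M, therefore the antibiotic and genotype results are given with and without them.

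The stretches of 250 bases before the transcription start are shown for the 3 genes whose level differed most with antibiotics or between libraries and that RefSeq's promoter table holds, to set the regulatory sequence beside the levels. Of the 5 genes, 4 had an entry in that table (build GRCr8), and S100a8 had none. Capitals mark matches on either strand to GGGA followed by 4 bases of any kind and CC, a simplified NF-κB motif, or to TATAAA, the core of a TATA box.
Lcn2 (chr3:36081781-36082030, minus strand): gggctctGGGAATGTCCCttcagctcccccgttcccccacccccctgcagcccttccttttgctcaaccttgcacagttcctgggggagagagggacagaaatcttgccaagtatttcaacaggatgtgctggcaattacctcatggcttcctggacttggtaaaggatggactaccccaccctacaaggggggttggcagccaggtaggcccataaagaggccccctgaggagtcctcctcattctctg
S100a9 (chr2:178490623-178490872, minus strand): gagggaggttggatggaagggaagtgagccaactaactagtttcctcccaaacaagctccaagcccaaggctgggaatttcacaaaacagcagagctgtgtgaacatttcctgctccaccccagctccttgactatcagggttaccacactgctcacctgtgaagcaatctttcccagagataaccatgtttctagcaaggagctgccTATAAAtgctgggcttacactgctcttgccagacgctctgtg
Lyz2 (chr7:54798012-54798261, minus strand): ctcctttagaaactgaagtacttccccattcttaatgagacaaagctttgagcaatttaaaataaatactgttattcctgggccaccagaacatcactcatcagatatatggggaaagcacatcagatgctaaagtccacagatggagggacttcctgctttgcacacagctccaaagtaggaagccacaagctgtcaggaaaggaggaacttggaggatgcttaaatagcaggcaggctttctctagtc
In Lcn2 the matches on both strands overlapped and together spanned bases 243 to 233 before the start. In S100a9 only TATAAA was found, 42 to 37 bases before the start, and the window of Lyz2 held neither pattern. Pigr (chr13:44850932-44851181, plus strand) held 2 matches to the NF-κB motif, both on the strand opposite to the gene. Of 33469 promoter windows of the same length, 16.4% held the NF-κB motif and 12.9% held TATAAA, so a match is a common feature and is given as a description.

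Lcn2 (ENSRNOG00000013973, Rnor6 chr3:11414186-11417546, minus strand) encodes lipocalin 2, which binds the siderophores that bacteria use to take up iron. In WT-C it had 8.22, 3.87 and 0.11 CPM (counts scaled to the library total) in replicates 1, 2 and 3, and in WT-Ab 0.13, 4.79 and 3.27 CPM. In TG-C it had 0.11, 0.52 and 2.88 CPM, and in TG-Ab 1.67, 1.51 and 2.46 CPM. Libraries of each untreated group and of WT-Ab ranged from nearly no reads to several CPM, so that treated and untreated libraries overlapped in both genotypes. The lowest value in each of these 3 groups rested on 2 counts, for which the 95% exact Poisson interval was 0.0132 to 0.394 CPM in WT-C 3, an interval of counting error only. TG-Ab was the only 3 M group without such a library.

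The mean level of Lcn2 was 4.07 ± 4.06 CPM in WT-C and 2.73 ± 2.38 CPM in WT-Ab (SD, n = 3 each). The fitted log2 fold change in WT rats was -0.69 with SE 1.41 and a 95% interval from -4.09 to 2.72 (edgeR quasi-likelihood test, adjusted p = 0.80). This interval leaves room for a large fall and for a large rise, as did that over both genotypes, from -2.25 to 2.04 around a value of -0.10 (edgeR, adjusted p = 0.962). In TG rats the means were 1.17 ± 1.49 CPM without and 1.88 ± 0.508 CPM with antibiotics. Lcn2 reached the minimum of 4 CPM in no TG library, and mean log2 CPM was 1.39 higher in TG-Ab than in TG-C (two-sided exact permutation test, p = 0.4; 3 libraries against 3 allow no p under 0.1). This measure is not the fitted one. By it the difference was -0.29 in WT rats and 0.55 over both genotypes (exact permutation tests, p = 0.8 and 0.63), so the sign over both genotypes depended on the measure. The fitted WT value turned to 0.34 on the log2 scale without WT-C 1, and was -0.11 without WT-Ab 1 (edgeR, adjusted p = 0.972). In TG rats the difference of Lcn2 was 0.57 without TG-C 1 and TG-Ab 1, and with single libraries left out it ran from 0.51 without TG-C 1 to 2.40 without TG-C 3. The edgeR fit of Lcn2 in TG rats without a filter gave a log2 fold change of 0.47 (adjusted p = 0.967). Over both genotypes the value without the 3 libraries was -0.01 (edgeR, adjusted p = 0.994).

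**Figure D1:**
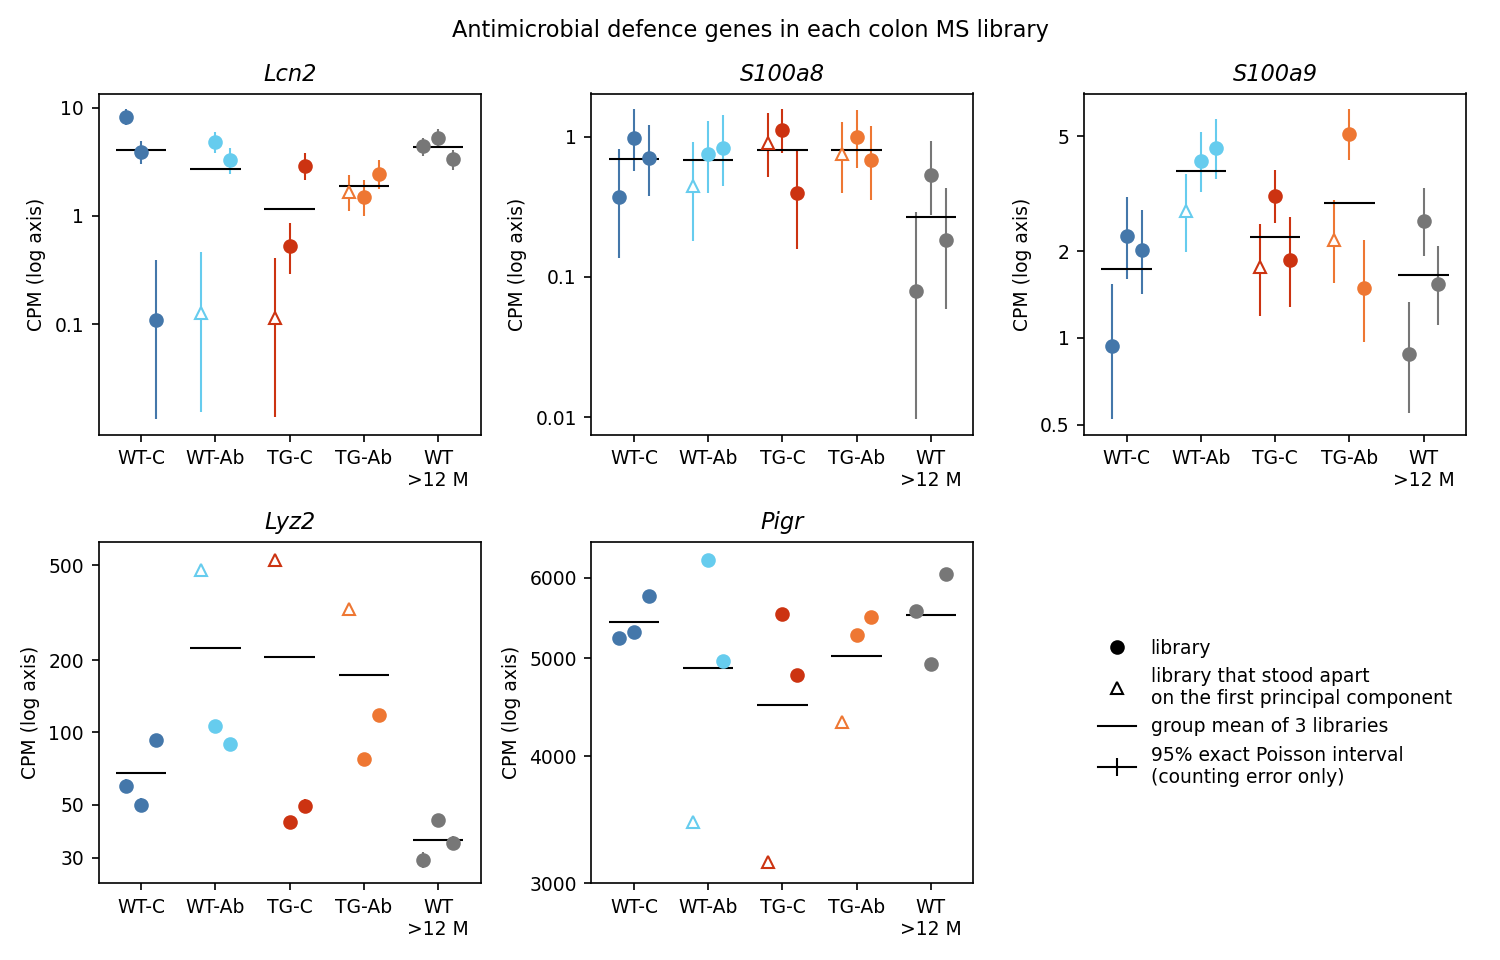
CPM on log axes of the 5 defence genes in each of the 15 libraries, by group. Filled circles are libraries, open triangles the 3 libraries that stood apart, vertical lines 95% exact Poisson intervals (counting error only; smaller than the symbol for Lyz2 and Pigr) and horizontal lines the mean of 3 libraries. S100a9 in WT-Ab (2.74 to 4.55 CPM) lies above WT-C (0.93 to 2.25 CPM), as for 23.1% of the genes tested in WT rats, and the triangles of Lyz2 (328 to 527 CPM) lie above all other libraries.

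S100a8 and S100a9 encode the subunits of calprotectin, the neutrophil protein that withholds zinc and manganese from bacteria. They lie 23199 bases apart on chromosome 2, S100a8 (ENSRNOG00000011557) at Rnor6 chr2:190073815-190074354 on the plus strand and S100a9 (ENSRNOG00000011483) at Rnor6 chr2:190097554-190100276 on the minus strand. S100a8 was close to the detection limit, with 6 to 32 counts per library at 3 M. It had 0.37, 0.98 and 0.71 CPM in WT-C and 0.45, 0.75 and 0.83 CPM in WT-Ab. It had 0.91, 1.12 and 0.40 CPM in TG-C and 0.75, 0.99 and 0.69 CPM in TG-Ab. Treated and untreated libraries overlapped in both genotypes and no group stood out. As no library reached 4 CPM, S100a8 was compared by the exact permutation test. Mean log2 CPM was 0.02 higher in WT-Ab than in WT-C (p = 1) and 0.09 higher in TG-Ab than in TG-C (exact p = 0.9), and the sign of both values changed when single libraries were left out. Over both genotypes the difference was 0.05 (exact permutation test stratified by genotype, p = 0.865). Without the libraries that stood apart the difference was 0.26 in WT rats, 0.25 in TG rats and 0.25 over both, on the same scale.

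S100a9, the partner subunit, had 0.93, 2.25 and 2.02 CPM in WT-C and 2.74, 4.10 and 4.55 CPM in WT-Ab. Every treated WT library was above every untreated one. The means were 1.74 ± 0.703 and 3.80 ± 0.940 CPM (SD, n = 3 each), and the fitted log2 fold change was 0.99 with SE 0.47 and a 95% interval from -0.13 to 2.11 (edgeR, adjusted p = 0.326). Such separation was common in WT rats, where 23.1% of the genes tested had all treated libraries above all untreated ones. S100a9 was also among the tested genes only because treated libraries reached 4 CPM, in TG rats TG-Ab 2 alone. Such a filter favours a higher value with antibiotics. Fitted without a filter, the WT log2 fold change was 0.97, with a 95% interval from 0.005 to 1.94 (edgeR, adjusted p = 0.420). With the filter but without WT-Ab 1 the log2 fold change was 1.21 with a 95% interval from 0.23 to 2.19 (edgeR, adjusted p = 0.188).

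In TG rats S100a9 had 1.75, 3.10 and 1.86 CPM without and 2.19, 5.09 and 1.49 CPM with antibiotics. The highest and the lowest of these 6 libraries were both treated ones. The log2 fold change was 0.24 with SE 0.62 and a 95% interval from -1.26 to 1.74 (edgeR, adjusted p = 0.981), and it was again 0.24 without TG-C 1 and TG-Ab 1 (edgeR, adjusted p = 0.859). Over both genotypes the log2 fold change of S100a9 was 0.62, with a 95% interval from -0.20 to 1.45 (edgeR, adjusted p = 0.388), and 0.77 without the 3 libraries (edgeR, adjusted p = 0.244). The change did not pass the test of a difference between the genotypes (difference TG minus WT -0.72, SE 0.75, edgeR, adjusted p = 0.998; -0.99 without the 3 libraries, adjusted p = 0.717). A value of 1 on this scale is a doubling, so in WT rats the fitted level of S100a9 was 1.99-fold that of the untreated rats. S100a8 had means of 0.688 ± 0.304 and 0.677 ± 0.204 CPM in WT-C and WT-Ab, resting on 36 and 33 counts. Fitted without a filter, its log2 fold change in WT rats had a 95% interval from -1.42 to 1.06 (edgeR). This interval includes the value of S100a9, so a difference between the subunits is not shown.

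Lyz2 (ENSRNOG00000005825, Rnor6 chr7:60335969-60341264, minus strand) encodes the lysozyme of macrophages and other myeloid cells, which cleaves the peptidoglycan of bacterial walls. A near relative, Lyc2, lies beside it, so that reads the copies share make its count uncertain. Lyz2 had 59.9, 49.8 and 93.0 CPM in WT-C and 479, 106 and 89.3 CPM in WT-Ab. It had 527, 42.2 and 49.3 CPM in TG-C and 328, 77.3 and 118 CPM in TG-Ab. The libraries that stood apart held 328 to 527 CPM and the other 9 libraries at 3 M held 42.2 to 118 CPM. In the same 3 libraries the mitochondrial share was lower, and the part of whatever set them apart in the level of Lyz2 was not tested.

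With every library kept, Lyz2 had a log2 fold change of 1.54 in WT rats, with SE 0.65 and a 95% interval from -0.04 to 3.12 (edgeR, adjusted p = 0.307). In TG rats it was -0.28, with SE 1.08 and a 95% interval from -2.95 to 2.38 (edgeR, adjusted p = 0.986). The difference between the genotypes was -1.79 (TG minus WT, SE 1.37; edgeR, adjusted p = 0.998) and turned to 0.50 without the 3 libraries (edgeR, adjusted p = 0.719). The TG value also changed sign with the handling of the libraries and with the measure. As a difference of mean log2 CPM it was 0.48 with all libraries (exact permutation test, p = 0.7). TG-C and TG-Ab libraries of the same number deviated together, but TG-C 1 and TG-Ab 1 both stood apart, so this does not show pairing. With the replicate number as a block the log2 fold change was 0.36 (95% interval from -0.55 to 1.27; edgeR, adjusted p = 0.736). Without TG-C 1 and TG-Ab 1 it was 0.95 (95% interval from 0.26 to 1.64; edgeR, adjusted p = 0.196), when the untreated libraries held 42.2 and 49.3 CPM and the treated ones 77.3 and 118 CPM. With 2 libraries against 2, 41.3% of the genes tested were likewise higher in both treated libraries. Without WT-Ab 1 the WT value was 0.43. Over both genotypes the log2 fold change was 0.63 with all libraries (95% interval from -1.02 to 2.27; edgeR, adjusted p = 0.672). It was 1.61 without TG-C 1 (edgeR, adjusted p = 0.0518) and 0.03 without WT-Ab 1 (edgeR, adjusted p = 0.991). Over both genotypes without all 3 libraries it was 0.68 (95% interval from 0.20 to 1.16; edgeR, adjusted p = 0.0706), in a fit in which 11.2% of genes passed the test. Among these 9 libraries the treated ones held 77.3 to 118 CPM and the untreated ones 42.2 to 93.0 CPM, with WT-C 3 inside the treated range.

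**Figure D2:**
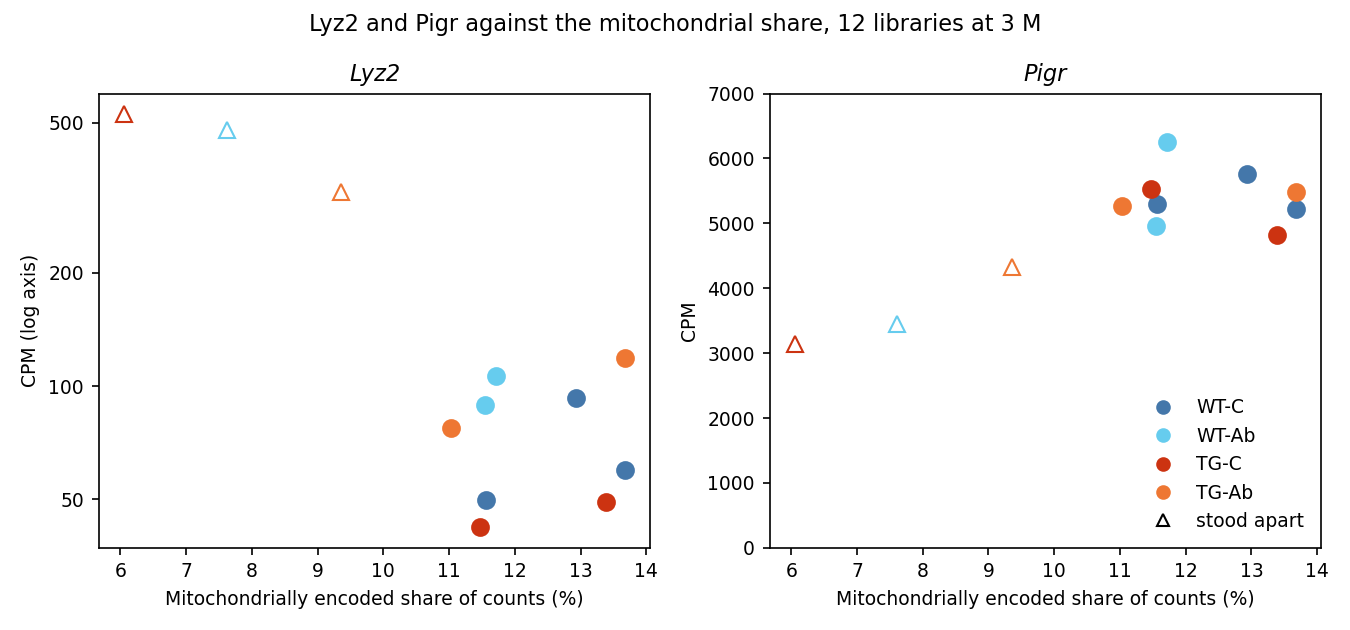
CPM of Lyz2 (log axis) and of Pigr (linear axis from 0) against the mitochondrially encoded share of counts, in percent, in the 12 libraries at 3 M. The 3 triangles, with shares of 6.05 to 9.35%, have the highest Lyz2 and the lowest Pigr, and they come from WT-Ab, TG-C and TG-Ab. The WT libraries at > 12 M are not shown. They had shares of 6.31 to 7.83%, with Lyz2 at 29.3 to 43.0 CPM and Pigr at 4930 to 6053 CPM. The relation of this share to either gene was not tested.

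Lyz2 also moved with much of the transcriptome. Over the 12 libraries, 1522 of 12456 other genes had a Pearson r above 0.9 with its log2 CPM, and 241 did so over the 9 libraries. All share library, depth and the 3 libraries that stood apart, so these counts describe a common pattern of the samples. With Pigr 36 genes had such an r over the 12 libraries and 10 over the 9 libraries. No gene reached such an r with Lcn2, S100a8 or S100a9 over the 12 libraries. Over the 9 libraries 1, 2 and 8 genes did so, in that order. Counting error at low counts can lower r, and how far it did so for each of these 3 genes was not tested. Their numbers of such genes are therefore not set against that of Lyz2.

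Pigr (ENSRNOG00000004405, Rnor6 chr13:47572219-47591699, plus strand) encodes the polymeric immunoglobulin receptor, with which epithelial cells carry IgA into the lumen. It was by far the most abundant of the 5 genes. Pigr had 5228, 5305 and 5754 CPM in WT-C and 3448, 6245 and 4963 CPM in WT-Ab. It had 3147, 5530 and 4815 CPM in TG-C and 4322, 5269 and 5490 CPM in TG-Ab. The lowest 3 values were those of the libraries that stood apart, at 3147 to 4322 CPM, and the other 9 libraries held 4815 to 6245 CPM, an order opposite to that of Lyz2. Treated and untreated libraries overlapped in both genotypes.

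The log2 fold change of Pigr with antibiotics was -0.29 in WT rats, with SE 0.28 and a 95% interval from -0.95 to 0.38 (edgeR, adjusted p = 0.583). It was -0.059 without WT-Ab 1 and -0.51 without WT-Ab 2 (edgeR, adjusted p = 0.825 and 0.405). In TG rats it was 0.01, with SE 0.34 and a 95% interval from -0.81 to 0.84 (edgeR, adjusted p = 0.998). Without TG-C 1 and TG-Ab 1 it was -0.091 (edgeR, adjusted p = 0.810). On the linear scale the TG interval with all libraries ran from 0.569-fold to 1.79-fold. Over both genotypes the log2 fold change was -0.13 with all libraries (edgeR, adjusted p = 0.760). Without the 3 libraries Pigr was 0.958-fold as high with antibiotics, with a 95% interval from 0.830 to 1.11-fold (edgeR, adjusted p = 0.686). Among the antibiotic comparisons of the 5 genes this was the narrowest interval, and the remaining width allows a small fall as well as a small rise.

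**Figure D3:**
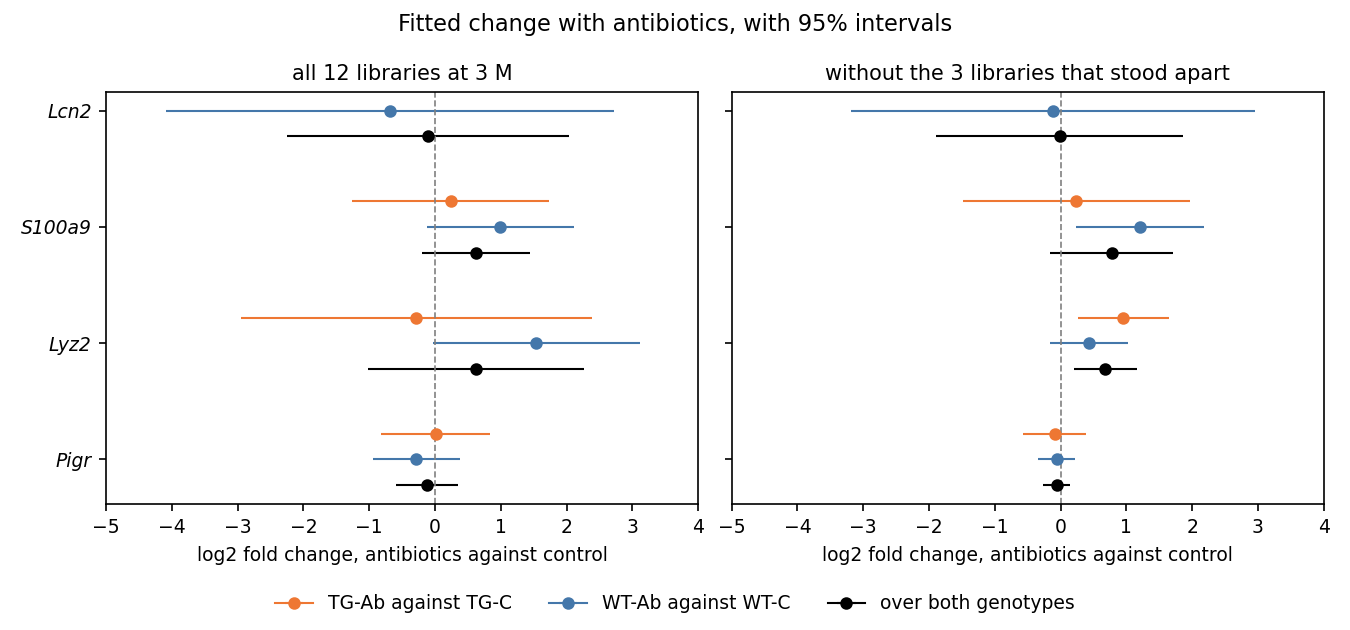
Log2 fold change of treated against untreated rats with 95% intervals from edgeR for the 4 genes that passed the filter on low counts, with all 12 libraries (left) and without the 3 libraries that stood apart (right). Colours mark TG rats, WT rats and both genotypes together. With all libraries every interval includes 0, and Lcn2 has no value in TG rats, where it was below the filter. Without the 3 libraries the intervals of Lyz2 in TG rats, Lyz2 over both genotypes and S100a9 in WT rats lie above 0. Their adjusted p were 0.196, 0.0706 and 0.188 (edgeR), in that order, and the other intervals include 0.

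Of the 5 genes, 3 passed the filter in TG rats and 4 in WT rats, and 0 of them changed with antibiotics in either genotype at an adjusted p under 0.05 (edgeR quasi-likelihood test, two-sided). The same test called 0.00814% of 12283 genes in TG rats and 0% of 12193 in WT rats, and a count of 0 among so few members is near that background and is not a result about them. In WT rats, where edgeR called no gene, 1987 genes had an unadjusted p under 0.05 and the DESeq2 Wald test called 615. Over both genotypes the test called 2.79% of genes and 0 of the 4 members. The difference of the antibiotic effect between genotypes passed the test for 0 of 4 members and 0% of genes, with 184 genes at an unadjusted p under 0.05 and 3 called by DESeq2. For Lcn2 that difference (TG minus WT) was 1.20 with SE 1.96, and for Pigr 0.34 with SE 0.44 (edgeR, adjusted p = 0.998 for each). Without the 3 libraries it was 0.19 for Lcn2 and -0.053 for Pigr (edgeR, adjusted p = 0.974 and 0.934), and S100a8 was below the filter. The median log2 fold change was 0.01 over 3 members in TG rats and 0.35 over 4 members in WT rats, against -0.05 and 0.04 over all genes tested. Without the libraries that stood apart it was 0.24 in TG rats and 0.19 in WT rats, against 0.02 and 0.0037. In either genotype 2 of the tested members had a value above 0. S100a9 was 1 of these and entered only through treated libraries. Neither the medians nor these counts are therefore a result about the members.

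Between the untreated genotypes at 3 M, 0 of the 3 members above the filter and 0% of genes passed the test, with 317 genes at an unadjusted p under 0.05 and 13 called by the DESeq2 Wald test. For Lcn2 the log2 fold change of TG-C against WT-C was -1.73, with a 95% interval from -5.39 to 1.92 (edgeR, adjusted p = 0.910). WT-C and TG-C each held a library with 2 counts of Lcn2, and their ranges overlapped. Lcn2 entered this test only through WT-C 1, at 8.22 CPM, a filter that favours a higher value in WT-C, so it has no fitted value without that library. Its log2 fold change was -1.22 without TG-C 1 and -3.60 without TG-C 3 (edgeR, adjusted p = 0.916 and 0.415). Lyz2 had a log2 fold change of 1.55 with all libraries and -0.50 without TG-C 1, with adjusted p of 0.910 and 0.804 (edgeR). Pigr had a value of -0.25 (95% interval from -0.95 to 0.45; edgeR, adjusted p = 0.918), which was -0.019 without TG-C 1 (edgeR, adjusted p = 0.984). For S100a8 and S100a9, below the filter here, mean log2 CPM was 0.18 and 0.39 higher in TG-C (exact permutation test, p = 0.7 and 0.6), and 0.057 and 0.54 higher without TG-C 1.

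Age was compared in untreated WT rats. The libraries at > 12 M were counted as read pairs and those at 3 M as single reads. Only the older titles carry the word Epi (epithelial), and the mitochondrial share was 6.31 to 7.83% against 11.6 to 13.7% in WT-C. Age, counting and these other differences therefore cannot be told apart, and 35.3% of 11498 genes passed the test. Lyz2 was the 1 member among 3 tested that did. It had 29.3, 43.0 and 34.6 CPM at > 12 M, each below the WT-C libraries at 49.8 to 93.0 CPM, as was the case for 31.9% of genes. The log2 fold change was -0.86 with SE 0.25 (edgeR, adjusted p = 0.038). The call was lost in 4 of the 6 fits that left out 1 library, with adjusted p between 0.0635 and 0.110 (edgeR), namely without WT >12M 1, WT >12M 3, WT-C 1 or WT-C 3. The untreated TG-C 2 library at 3 M, at 42.2 CPM, was inside the range of the older rats.

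The other genes did not pass the test of age. Lcn2 had 4.40, 5.27 and 3.33 CPM at > 12 M, a narrower range than at 3 M, with a log2 fold change of 0.16 (edgeR, adjusted p = 0.909). Pigr had 5565, 4930 and 6053 CPM and a log2 fold change of 0.08 (95% interval from -0.16 to 0.32; edgeR, adjusted p = 0.566). S100a8 had 0.08, 0.54 and 0.18 CPM, resting on 2, 12 and 5 counts, and mean log2 CPM was lower than in WT-C by 1.22 (difference -1.22, exact permutation test, p = 0.2). S100a9 had 0.88, 2.54 and 1.54 CPM, within 0.09 of WT-C in mean log2 CPM (difference -0.09, exact permutation test, p = 0.9).

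Per kilobase of exon, group means of CPM ran from 1281 to 1571 for Pigr, 29.9 to 189 for Lyz2, 3.13 to 7.19 for S100a9, 1.32 to 4.87 for Lcn2 and 0.706 to 2.14 for S100a8. Neither Pigr and Lyz2 nor Lyz2 and the other genes overlapped on this scale, whereas the range of Lcn2 overlapped those of S100a9 and S100a8. The spread between libraries depended on which libraries were compared. Across the 12 libraries at 3 M the highest level was 75.3-fold the lowest for Lcn2, 12.5-fold for Lyz2, 5.45-fold for S100a9, 2.98-fold for S100a8 and 1.98-fold for Pigr. Across the 9 libraries that did not stand apart it was 75.3-fold for Lcn2, 5.45-fold for S100a9, 2.98-fold for S100a8, 2.80-fold for Lyz2 and 1.30-fold for Pigr. The lowest level of Lcn2 rested on 2 counts.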

How the data were processed

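The 15 libraries held RNA of the colon MS layer and were grouped by their sample labels. The authors deposited raw counts per gene, made per the file headers with featureCounts 2.0.0 on Rnor6 exons, strand setting 2 and minimum mapping quality 3. The mapping quality setting alone does not show whether reads shared by near-identical genes were counted. Subread, STAR 2.5.4a and bcl2fastq 2.19.1 appear in the submitters' processing notes. The labels name NEBNext poly(A) libraries, whereas the study's methods name QuantSeq 3' libraries and mRatBN7.2, and with 3' libraries levels per kilobase would not hold.

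The 5 genes and all lists were chosen with earlier results of these data known. CPM were computed from library totals over all genes. Genes that reached 4 CPM in 1 or more of the libraries compared were fitted on the whole table in R 4.3.3 with edgeR 4.0.16 (TMM, glmQLFit with robust estimation, glmQLFTest, Benjamini-Hochberg adjustment), and called at an adjusted p under 0.05. Members below that filter were compared by exact permutation of mean log2 CPM (prior count 2). By rule every member was reported in every comparison; for the difference between genotypes S100a8, below the filter, had no test. Lists of defence genes and cell type markers were left out because no ID paired with a symbol. Alternatives were other filters, DESeq2 1.42.0 size factors and Wald test, a replicate block, 1 fit of all 4 groups, and each library left out; leaving out the 3 libraries that stood apart was chosen after seeing the data. Same-numbered libraries were checked for pairing by the correlation of their deviations from group means (Pearson r across genes). It was 0.797, 0.793 and 0.575 for TG-C with TG-Ab, and -0.0541, 0.186 and -0.151 for WT-C with WT-Ab. TG-C 1 and TG-Ab 1 both stood apart, and deviations within a group cancel out. The TG values therefore cannot show pairing by number, and the replicate block is given as an alternative only. Fits were tested on simulated data with 1 fixed dispersion for all genes and no libraries that stood apart. Changes were planted only in genes at higher levels than Lcn2, S100a8 and S100a9, so this check does not cover them.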

Additional observations from a re-analysis of the deposited data

How the results depend on the processing

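No member passed the threshold for antibiotics, in either genotype or over both, under any alternative run. Of 204 values of members under these alternatives, 29 changed sign. Without a filter the log2 fold change was -0.14 for S100a8 and -0.0061 for Pigr in TG rats, and -0.18 for S100a8 in WT rats and -0.15 over both genotypes. With filterByExpr S100a8 had -0.14, -0.17 and -0.14. With the replicate block Lyz2 in TG rats was 0.36 and Lcn2 over both genotypes 0.65; the block changed no other direction and no call. Without the 3 libraries that stood apart Lyz2 was 0.95 and Pigr -0.091 in TG rats, the interaction was 0.50 for Lyz2 and -0.053 for Pigr, and Lyz2 was -0.50 in TG-C against WT-C. Over single libraries left out, values on the log2 scale ran, in TG rats, from -0.30 to 0.35 for S100a8, -0.21 to 0.19 for Pigr and -1.06 to 1.72 for Lyz2; in WT rats, from -1.35 to 0.34 for Lcn2 and -0.31 to 0.29 for S100a8; over both genotypes, from -0.42 to 0.47 for Lcn2 and -0.14 to 0.19 for S100a8. They ran from -2.58 to 0.19 for the interaction of Lyz2, from -0.15 to 0.57 for S100a8 and -0.50 to 1.998 for Lyz2 between untreated genotypes, and with age from -0.42 to 1.18 for Lcn2 and -0.46 to 0.27 for S100a9. With age, S100a9 was 0.014 without a filter, and the number of members called was 0 without a filter and 0 to 1 with libraries left out. Over all genes, DESeq2 called 201, 615 and 1247 genes for antibiotics in TG rats, WT rats and both, against 1, 0 and 347 by edgeR, and without the 3 libraries edgeR called 0, 187 and 1342. The block gave 20 calls in TG rats, and single libraries left out gave 89 to 1848 over both genotypes and 2505 to 4004 with age, against 4061. DESeq2 gave no adjusted p for Lyz2 between untreated genotypes, and members that fell below the filter when a library was left out had no value there. The cause of these changes was not tested. Counts of 2 to 32 limit what can be said of S100a8.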
